A study of Mus musculus with 4 samples.

Results

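The genes of fatty acid synthesis and desaturation described here are the 10 symbols Fasn, Acaca, Acacb, Acly, Scd1, Scd2, Elovl6, Me1, Srebf1 and Mlxipl, taken as every array probe whose gene name is one of these symbols or an older alias of the same gene. They were covered by 18 of the 41174 probes on the array, of which 16 were well above background on at least 2 arrays. All 10 genes passed the filter on dim signal and so belong to the 16450 genes tested. Where a gene had several probes, the one brightest on average stands for it.

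The cells were induced hepatocyte-like (iHep) cells of strain C57BL/6, which had been derived from cells labelled MDFs, an abbreviation that the sources used here do not spell out. They were grown either in 2D or in 3D culture, and total RNA of each culture was labelled with Cy3 and hybridised to an array of its own. According to the design text the cells came from separate preparations in independent experiments, called iHep-1 and iHep-2. With a single array for every culture in an experiment, 2 arrays stood for 2D and 2 for 3D, and this number sets the precision. No source states whether the experiments began from separate animals. Standard errors (SE), intervals and p-values rest on the spread between these arrays, moderated by a variance prior pooled over all genes tested. In the sample titles the experiment's name is followed by a plus sign for 2D and by none for 3D, its meaning is not given, and it cannot be told apart from culture.

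In liver, surplus carbohydrate is turned into fat by a short cytosolic path. ATP citrate lyase (Acly) splits citrate into acetyl-CoA, the acetyl-CoA carboxylases (Acaca and Acacb) make malonyl-CoA, fatty acid synthase (Fasn) joins these units into palmitate with NADPH that malic enzyme (Me1) helps to supply, and the elongase Elovl6 and the stearoyl-CoA desaturases Scd1 and Scd2 lengthen and desaturate the product. Transcription of the path is driven by SREBP-1, encoded by Srebf1, which responds to insulin and to the oxysterol receptor LXR, and by ChREBP, encoded by Mlxipl, which responds to sugar metabolites.

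Levels are log2 signals relative to the 75th percentile of the same array, so that 0 is that percentile, and they are given in the order iHep-1 2D, iHep-1 3D, iHep-2 2D and iHep-2 3D. Paired differences are 3D minus 2D in log2 units, with the iHep-1 value before the iHep-2 value. A gene called higher is higher against the rest of its array. The 75th percentile lay between 399 and 616 intensity units, and 23061 to 24411 probes per array were well above background. Probes printed in 10 copies had a median SD between copies of 0.058 to 0.067 log2 units. The scanner's error model gave each difference between a pair of bright spots an error of 0.19. This follows from an error of 10% that the model gave to every bright spot alike, and it is not a spread measured between copies. Scaling to spike-in controls instead subtracts a constant 1.67 from every difference in iHep-1 and 0.53 in iHep-2, which moved the median of all genes to -1.08. The spike-in signal itself differed between the cultures by 1.85 in iHep-1 and by -0.096 in iHep-2.

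The lipogenic genes did not move as a block. Signals of Acacb, Scd1 and Me1 in 3D were over 2 times those in 2D in each experiment, and Srebf1 was 2.19-fold and 1.87-fold higher. By their brightest probes Fasn, Acly and Acaca, which carry citrate to palmitate, stayed within 0.52 log2 units in either direction. Dimmer probes reached 0.77 for Acaca and 0.56 for Fasn in iHep-2. With spike-in scaling Acacb and Scd1 were still higher in both experiments, Me1 and Srebf1 were higher in iHep-2 only, and Fasn, Acly and Acaca were lower in both. By limma, 0 of the 10 genes passed an adjusted p of 0.05, as did 0 (percent called, 0) of the 16450 genes tested, where the lowest adjusted p was 0.496. Without adjustment, 3 of the 10 had a p under 0.05, namely Scd1, Acacb and Srebf1, against 1157 genes, or 7.03%, of all tested. An exact permutation test of a single gene over 2 against 2 arrays cannot go below a two-sided p of 0.333.

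By direction alone, 7 of the 10 genes were higher in 3D in both experiments, where 33.2% of all genes were, and 0 were lower in both, where 33.0% were. The count was 6 by quantile normalization and in the authors' series table, and 2 with spike-in scaling. Both 3D arrays lay above both 2D arrays for 6 of the 10, namely Scd1, Acacb, Srebf1, Me1, Scd2 and Fasn, against 19.8% of all genes, and 0 had both below, against 21.5%. At least 1 log2 unit higher in both experiments were 3 genes, Acacb, Scd1 and Me1, against 4.26% of all genes, and 0 were lower by as much, against 2.13%. The median difference over the 10 was 0.25 in iHep-1 and 1.01 in iHep-2, against -0.023 and 0.041 over all genes. For the mean of both experiments it was 0.76, or -0.34 with spike-in scaling.

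**Figure D1:**
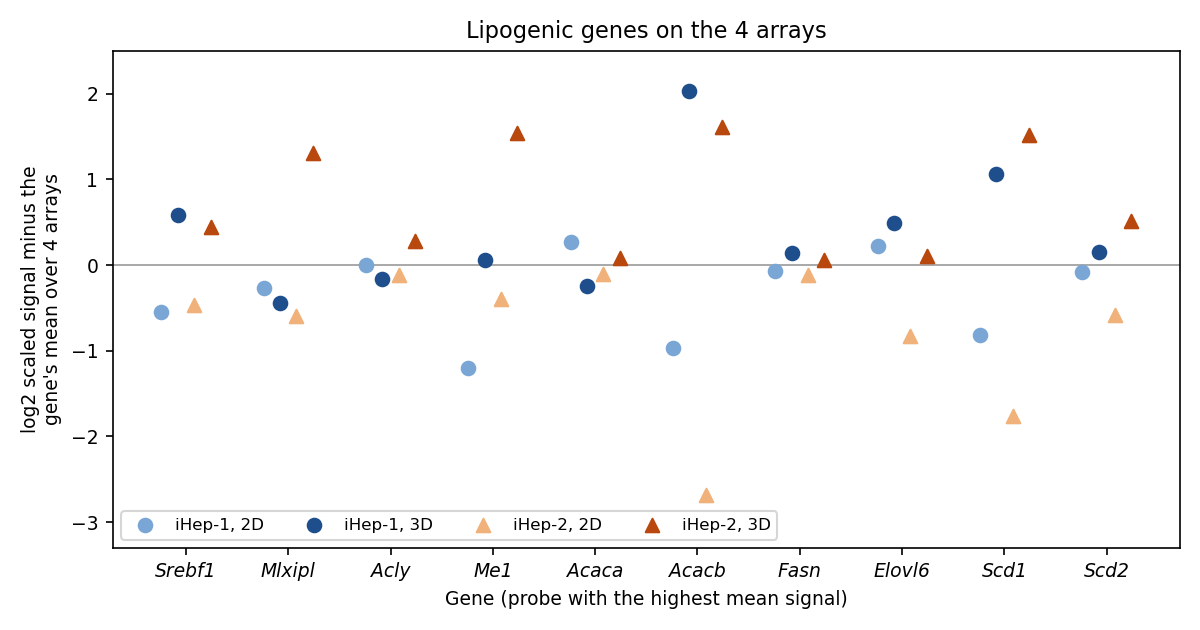
Scaled log2 signal of each gene on each array, minus that gene's mean over the 4 arrays; circles are iHep-1, triangles iHep-2, pale symbols 2D and dark symbols 3D. For Scd1 both 3D arrays lie at least 1.06 above the gene's mean and both 2D arrays at least 0.81 below it, while the 4 Fasn values span 0.26 log2 units; with spike-in scaling the Fasn difference becomes negative in both experiments.

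Srebf1, the gene of SREBP-1, was at 4.61, 5.75, 4.70 and 5.61. Both 3D arrays were higher than both 2D arrays, and the arrays of 1 culture were within 0.14 of each other. The mean difference was 1.02 ± 0.21 (SE, n = 2 per culture), with a 95% confidence interval of 0.40 to 1.64 and an adjusted p of 0.684 (limma). Spike-in scaling turned it to -0.54 in iHep-1 and left it at 0.37 in iHep-2. A single probe (chr11:60013214-60013273, mm9) stands for the gene, and the transcripts of its different start sites were not told apart.

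Mlxipl, the gene of ChREBP, was at 1.79, 1.62, 1.47 and 3.37. Only the 3D array of iHep-2 stood apart, and the other 3 arrays lay within 0.32 of each other. The differences were -0.17 and 1.89, and the mean was 0.86 ± 0.69 (SE, n = 2 per culture; 95% confidence interval -1.16 to 2.88; adjusted p = 0.771, limma). The dimmer Mlxipl probe gave -0.087 and 1.99, much like the brighter one (chr5:135613505-135613564, mm9). With 1 array per culture in each, the opposite signs of the experiments could not be tested. Without the 3D array of iHep-2 the mean difference was -0.012.

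Promoter sequence of 8 of the 10 genes, in 12 start-site windows, was taken from RefSeq (build GRCm38.p6). Scd1 and Scd2 had no entry, and the window of Acaca, also near 0, is not shown. The stretches shown are the 120 bases before the start site of the genes with higher signal in 3D (Srebf1, Me1 and Acacb) and of those near 0 (Fasn and Acly), 5′ to 3′ on the gene's strand, so that these groups can be read side by side. They lie at chr11:60210472-60210591 (minus strand, the most downstream of 3 Srebf1 start sites), chr9:86695915-86696034 (minus), chr5:114165398-114165517 (plus), chr11:120824548-120824667 (minus) and chr11:100528001-100528120 (minus), in that order with Fasn before Acly. Capitals mark matches on either strand to the CCAAT box (CCAAT) or the GC box (GGGCGG).
Srebf1: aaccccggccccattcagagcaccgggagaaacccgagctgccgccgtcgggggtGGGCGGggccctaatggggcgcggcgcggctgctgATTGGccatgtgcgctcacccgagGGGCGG
Me1: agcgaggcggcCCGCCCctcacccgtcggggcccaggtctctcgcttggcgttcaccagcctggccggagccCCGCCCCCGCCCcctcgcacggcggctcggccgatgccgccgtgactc
Acacb: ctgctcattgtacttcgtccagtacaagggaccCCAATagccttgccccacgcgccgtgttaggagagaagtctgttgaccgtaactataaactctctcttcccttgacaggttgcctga
Fasn: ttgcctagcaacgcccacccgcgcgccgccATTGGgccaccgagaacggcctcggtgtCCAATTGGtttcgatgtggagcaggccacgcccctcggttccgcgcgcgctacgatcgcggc
Acly: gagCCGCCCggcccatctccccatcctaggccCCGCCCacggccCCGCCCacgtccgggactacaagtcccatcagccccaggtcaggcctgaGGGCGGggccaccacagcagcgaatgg

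Within 250 bases before the start site, a CCAAT box was found in 6 of the 12 windows, belonging to Acacb, Fasn, Me1, Mlxipl and Srebf1, against 33.8% of 32851 windows of the same length over all genes. A GC box was found in 5 of the 12 (Acly, Me1, Mlxipl and Srebf1), against 32.7%. The E-box CACGTG, the core of the elements that ChREBP binds, was found once, before Mlxipl, against 6.02% of all windows. The classical sterol regulatory element SRE-1 was found in 0 of the 12 and in 0.0731% of all windows, and the letters TGACNNNGC, the core of the antioxidant response element, in 0 of the 12 and 10.2% of all. Motifs may overlap, as the CCAAT pair before Fasn does. Genes higher in 3D, with Scd1 missing, and genes near 0 thus both held CCAAT and GC boxes. Acaca held no match, and the CCAAT box of Me1 lay before a start site that is not shown. A match is a description of letters only.

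Acly, which makes cytosolic acetyl-CoA, was at 0.57, 0.41, 0.45 and 0.84. The cultures overlapped, and the differences of -0.16 and 0.39 had opposite signs. The mean was 0.11 ± 0.27 (SE, n = 2 per culture; 95% confidence interval -0.66 to 0.89; adjusted p = 0.925, limma), from a probe at chr11:100338517-100338575 (mm9). A second probe with this name was not well above background on any array.

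Me1, the cytosolic malic enzyme that yields NADPH, was at 1.37, 2.63, 2.17 and 4.11. Each experiment was higher in 3D, by 1.27 and 1.94 (2.40-fold and 3.84-fold), and the highest 2D array was still below the lowest 3D array. The mean difference was 1.60 ± 0.66 (SE, n = 2 per culture), with a 95% confidence interval of -0.32 to 3.53 and an adjusted p of 0.684 (limma). With the experiment as a block the interval was 0.73 to 2.48 (unadjusted p = 0.0090, adjusted p = 0.288, limma), which made Me1 the fourth member with an unadjusted p under 0.05, where 13.2% of all genes had one. The mean difference was 0.86 without the 3D array of iHep-2. The other Me1 probe gave 1.496 and 1.99. Both probes lie on chromosome 9, at 86475291 to 86475347 and at 86480030 to 86480089 of mm9, and each was well above background on all 4 arrays. With spike-in scaling the differences were -0.40 and 1.41.

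The acetyl-CoA carboxylases separated. Acaca encodes the cytosolic isoform that feeds fatty acid synthase, and Acacb the isoform at the mitochondrial membrane whose malonyl-CoA restrains fatty acid entry into mitochondria. Acaca was at 0.035, -0.48, -0.34 and -0.15 by its brightest probe (chr11:84214359-84214418, mm9), with overlapping cultures. Its mean difference was -0.16 ± 0.28 (SE, n = 2 per culture; 95% confidence interval -0.97 to 0.65; adjusted p = 0.896, limma).

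Acacb was at -4.99, -1.996, -6.71 and -2.41. Both 3D arrays were well above both 2D arrays, and the iHep-2 2D value was not well above background. The difference was 3.00 in iHep-1 (7.98-fold). In iHep-2 it was 4.30, which rests on that dim value and is no exact size, and the mean was 3.65 ± 0.69 (SE, n = 2 per culture; 95% confidence interval 1.63 to 5.66; adjusted p = 0.684, limma). With normexp background correction, which lifts dim values, the mean difference was 1.51, and with spike-in scaling the differences were 1.33 and 3.77. The probe lies at chr5:114700635-114700695 (mm9).

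The isoforms also show how far the probe matters. Of the 4 Acaca probes and the 2 Acacb probes, 4 have mm9 coordinates spanning 1004 to 12416 bases for 60 bases of sequence and so cross an intron. They are printed here because they read joined exons rather than a single one, in the order Acaca chr11:84107446-84108449, chr11:84093999-84106414 and chr11:84155512-84159512, then Acacb chr5:114634167-114638374.
Acaca junction probe 1: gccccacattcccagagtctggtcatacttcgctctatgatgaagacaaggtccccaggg
Acaca junction probe 2: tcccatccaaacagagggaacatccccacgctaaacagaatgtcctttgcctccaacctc
Acaca junction probe 3: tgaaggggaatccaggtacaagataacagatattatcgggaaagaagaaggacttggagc
Acacb junction probe: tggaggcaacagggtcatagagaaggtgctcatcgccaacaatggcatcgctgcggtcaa

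In iHep-1 the Acaca junction probes gave -0.33, -0.096 and -0.071 and in iHep-2 0.29, 0.64 and 0.77, so all 4 Acaca probes were below 0 in iHep-1 and above 0 in iHep-2. Their signals were 10.4 to 28.4 intensity units, near the dim end of the array, against 360 to 536 for the brightest probe. The mean of all Acaca probes was 0.11. The Acacb junction probe was not well above background on any array, so the Acacb difference rests on 1 probe.

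Fasn, which assembles palmitate, was at 5.91, 6.12, 5.87 and 6.04. Its differences of 0.21 and 0.17 were the closest to each other among the 10 genes. They were about as large as the 0.19 that the error model gives to any pair of bright spots. The median SD between copies of a probe, measured for single spots, was smaller (0.058 to 0.067). The mean was 0.19 ± 0.21 (SE, n = 2 per culture; 95% confidence interval -0.41 to 0.80; adjusted p = 0.823, limma), and 63.5% of the genes tested had a lower mean difference. The interval, which rests in part on the variance prior over all genes, excludes a doubling. The dimmer Fasn probe, which lies 794 bases further downstream of the brighter one (chr11:120668460-120668519, mm9), gave 0.23 and 0.56. In iHep-2 the brighter probe's difference was -0.045 by quantile normalization and -0.048 in the authors' series table.

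Elovl6, which lengthens palmitate to stearate, was at 2.43, 2.70, 1.39 and 2.32, higher in 3D by 0.27 and 0.93. The 2D array of iHep-1 was above the 3D array of iHep-2, so the cultures overlapped. The mean difference was 0.60 ± 0.46 (SE, n = 2 per culture; 95% confidence interval -0.75 to 1.95; adjusted p = 0.768, limma), with a probe at chr3:129341248-129341307 (mm9). It was 0.076 without the 2D array of iHep-2 and 1.12 without that of iHep-1.

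Scd1, the main stearoyl-CoA desaturase of adult mouse liver, was at 2.61, 4.48, 1.66 and 4.94. The 3D arrays lay 1.87 and 3.28 above their 2D partners (3.66-fold and 9.74-fold), and the lowest 3D value exceeded the highest 2D value by more than the difference within either culture. The mean difference was 2.58 ± 0.44 (SE, n = 2 per culture), with a 95% confidence interval of 1.28 to 3.87 and an adjusted p of 0.684 (limma). With spike-in scaling it was 0.20 and 2.75. The probe lies at chr19:44469387-44469446 (mm9).

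Scd2, the related desaturase that prevails in fetal liver and brain, was at 6.75, 6.98, 6.25 and 7.35. The differences were 0.24 and 1.096, and the mean was 0.67 ± 0.31 (SE, n = 2 per culture; 95% confidence interval -0.23 to 1.56; adjusted p = 0.694, limma). The 3D arrays lay above the 2D arrays, with a gap of 0.24 log2 units. Without the 2D array of iHep-2 the mean was 0.42. Scd1 and Scd2 (chr19:44381024-44381083, mm9) have 1 probe each, and cross-hybridisation between these relatives was not tested. Spike-in scaling gave -1.43 and 0.56 for Scd2.

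**Figure D2:**
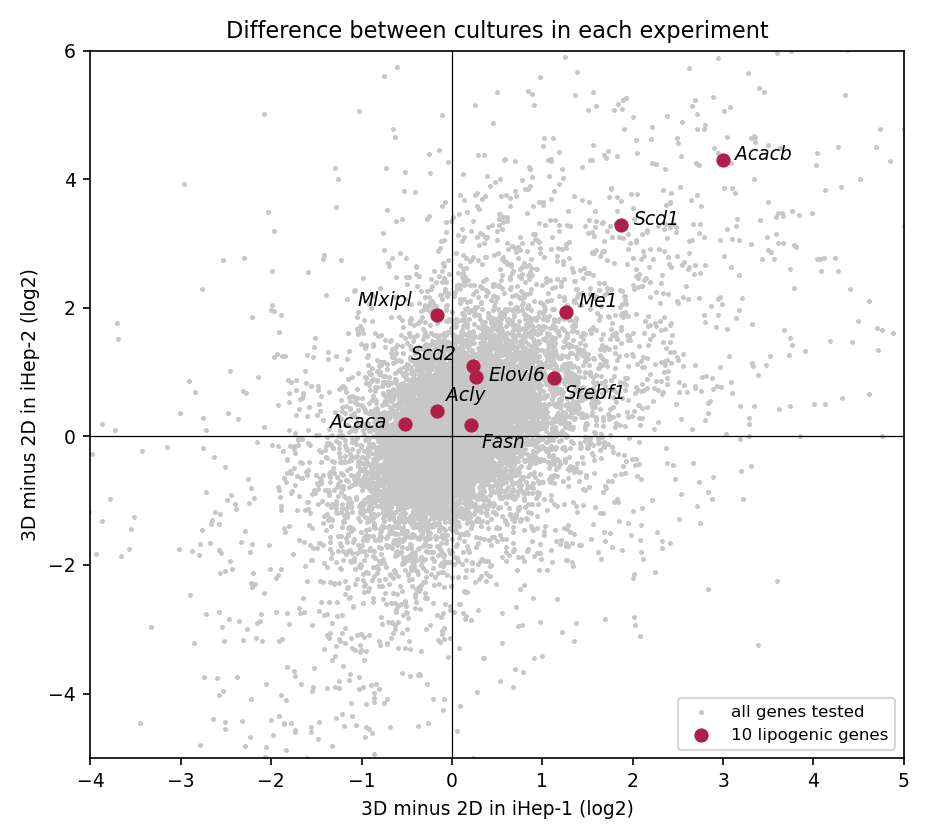
Difference of 3D from 2D in iHep-1 (x axis) and iHep-2 (y axis), both in log2 units; grey points are all genes tested and red points the 10 lipogenic genes, with 161 genes outside the axes. Acacb, Scd1 and Me1 lie at or beyond 1 on both axes, Mlxipl lies near 0 in iHep-1 and at 1.89 in iHep-2, and Fasn, Acly and Acaca lie near the origin; spike-in scaling shifts all points by 1.67 to the left and 0.53 down.

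**Figure D3:**
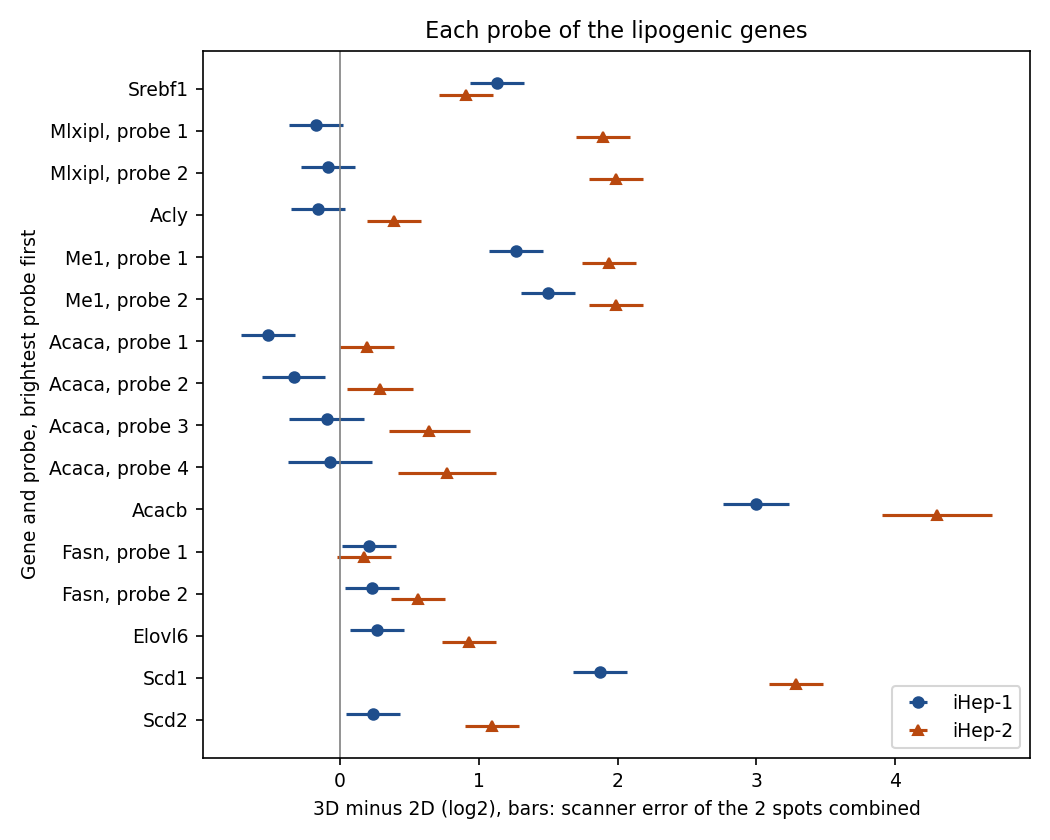
Difference of 3D from 2D (x axis, log2) for each of the 16 probes well above background on at least 2 arrays, with iHep-1 as circles and iHep-2 as triangles. Bars combine the errors that the scanner's error model gives to a pair of spots, 10% for each bright spot, and are not a measured spread. Probes of the same gene gave like values for Me1 and Mlxipl, while the Acaca probes ranged from -0.52 to -0.071 in iHep-1 and from 0.19 to 0.77 in iHep-2; with spike-in scaling every value is lower by 1.67 in iHep-1 and 0.53 in iHep-2.

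The experiments were also set against each other. For iHep-2 against iHep-1, limma called 54 genes (0.328% of those tested) and 0 of the 10, whose adjusted p lay between 0.625 and 0.993. With culture as a block 303 genes were called (1.84%), again 0 of them members. By at least 1 log2 unit in both cultures, 0 members were higher in iHep-2, against 5.12% of all genes, and 0 were lower, against 5.74%. Me1 was higher in iHep-2 in 2D (0.80) and in 3D (1.48), and Elovl6 was lower in both (-1.05 and -0.39). Elovl6 was the only member whose iHep-2 arrays both lay below both iHep-1 arrays, against 22.6% of all genes, and 0 had both above, against 19.0%. Scd1 was lower in iHep-2 in 2D (-0.95) and higher in 3D (0.46), and Mlxipl likewise (-0.32 and 1.75). In the 2D cultures the median over the 10 was -0.35 for iHep-2 minus iHep-1, and in the 3D cultures it was 0.35. With spike-in scaling Elovl6 was higher in iHep-2 in 3D (0.28).

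Genes around the path were taken from fixed lists. Of 13 genes that supply carbon and NADPH, 12 were tested, 9 were higher in 3D in both experiments and 2 lower in both, and 0 passed the adjusted p. Pgd, the second dehydrogenase of the pentose phosphate path, differed by 1.03 and 1.53 (adjusted p = 0.684, limma), and its other probe gave a similar mean difference (1.25). G6pdx, the first one, differed by 0.45 and 0.53, and Slc25a1, the mitochondrial citrate carrier, by 0.32 and 1.18. Me2, the mitochondrial malic enzyme, went the other way from Me1, at -0.44 and -1.06. The list median was 0.50 for the mean of both experiments, or -0.60 with spike-in scaling, under which 0 of the 12 were higher in both.

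In the elongation and desaturation cycle, 13 of 18 genes were tested, with 5 higher in 3D in both experiments, 2 lower in both and 0 past the adjusted p. Elovl2, an elongase of polyunsaturated fatty acids in liver, differed by 1.47 and 1.18 (unadjusted p = 0.00598, adjusted p = 0.684, limma). Hacd1, a dehydratase of the cycle, differed by 1.01 and 0.38. On the lower side were Fads3 (-0.68 and -1.45) and Elovl5 (-0.39 and -0.40). Fads1 and Fads2, the desaturases of polyunsaturated fatty acids, chosen after their values were seen, differed by 0.37 and 0.69 and by -0.0057 and 0.96. The desaturases Scd3 and Scd4 were not well above background on any array. Their list median was 0.32, or -0.78 with spike-in scaling, where 0 of the 13 were higher in both. Of 5 tested genes of mitochondrial fatty acid synthesis, 2 were higher in both (Oxsm by 0.36 and 0.63, Cbr4 by 0.21 and 0.76) and 1 lower (Mcat, -0.37 and -0.17), with a median of 0.023, or -1.08 with spike-in scaling.

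Among 18 regulators and cofactors of lipogenesis, all tested, 9 were higher in iHep-1 and iHep-2 alike, 4 were lower in both and 0 passed the adjusted p (median 0.24, or -0.86 with spike-in scaling, where 2 were higher and 12 lower in both). Thrsp, the thyroid hormone responsive protein Spot 14 that promotes lipogenesis in liver, was at -4.16, 0.64, -6.79 and 0.28. In iHep-1 its difference of 4.80 exceeded that of every member. The 7.07 of iHep-2 rests on a 2D value that was not well above background, as does the 4.30 of Acacb, so these have no order (adjusted p = 0.684, limma). Spike-in scaling leaves both positive. Nr1h3, which encodes LXR alpha, an activator of Srebf1, differed by 0.65 and 1.47. Prkaa2, a catalytic subunit of the AMP-activated kinase that inhibits acetyl-CoA carboxylase, differed by 1.83 and 1.19. Mbtps1, the protease that makes the first cut in SREBP maturation, differed by -0.86 and -0.83, and its 3 probes gave mean differences from -0.86 to -0.30. Srebf2 differed by 0.18 and -0.14, and Insig1, a retention factor of SREBPs and itself a target, by -0.46 and 2.05. Srebf2 and Insig1 were chosen after their values were seen.

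Of 14 other targets of SREBP-1, ChREBP or LXR, 9 were higher in both experiments and 1 lower (median 0.78, or -0.32 with spike-in scaling, where 1 was higher and 2 lower in both), and 0 passed the adjusted p. Rgs16, a sugar-responsive regulator of G-protein signalling in liver, was at -4.47, -0.85, -5.90 and -1.41, well above background on all 4 arrays, and differed by 3.63 and 4.49 (unadjusted p = 0.00383, adjusted p = 0.684, limma). Pklr, the liver pyruvate kinase and a target of ChREBP, differed by 0.85 and 2.45, and the sterol exporters Abcg1 and Abca1 by 1.24 and 2.17 and by 0.48 and 0.43. The iHep-2 2D value of Abcg1 was not well above background. Pnpla3, a target of SREBP-1 chosen after its values were seen, differed by -0.62 and 3.36.

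Cholesterol synthesis genes, which SREBP-2 rather than SREBP-1 chiefly drives, gave a different picture by experiment. Of 17 tested genes, 5 were higher in 3D in both experiments, 0 lower in both and 12 of opposite sign, with list medians of -0.24 in iHep-1 and 1.55 in iHep-2. Opposite signs were seen in 3 of the 10 lipogenic genes and in 33.8% of all genes tested. With spike-in scaling they were seen in 13 of the 17 and 5 of the 10, and no share of all genes is given for that scaling. Pmvk differed by 0.70 and 1.99, Hmgcs1 by 0.26 and 1.92, and Idi1 by 0.22 and 1.96. Of the 17, 0 passed the adjusted p by limma, and 0 by limma with the experiment as a block. At an unadjusted p under 0.05 were 2 of the 17 by limma, against 7.03% of all genes. With the block it was 1, against 13.2%. With spike-in scaling 0 were higher and 4 lower in both. A difference between the experiments could not be tested with so few arrays.

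**Figure D4:**
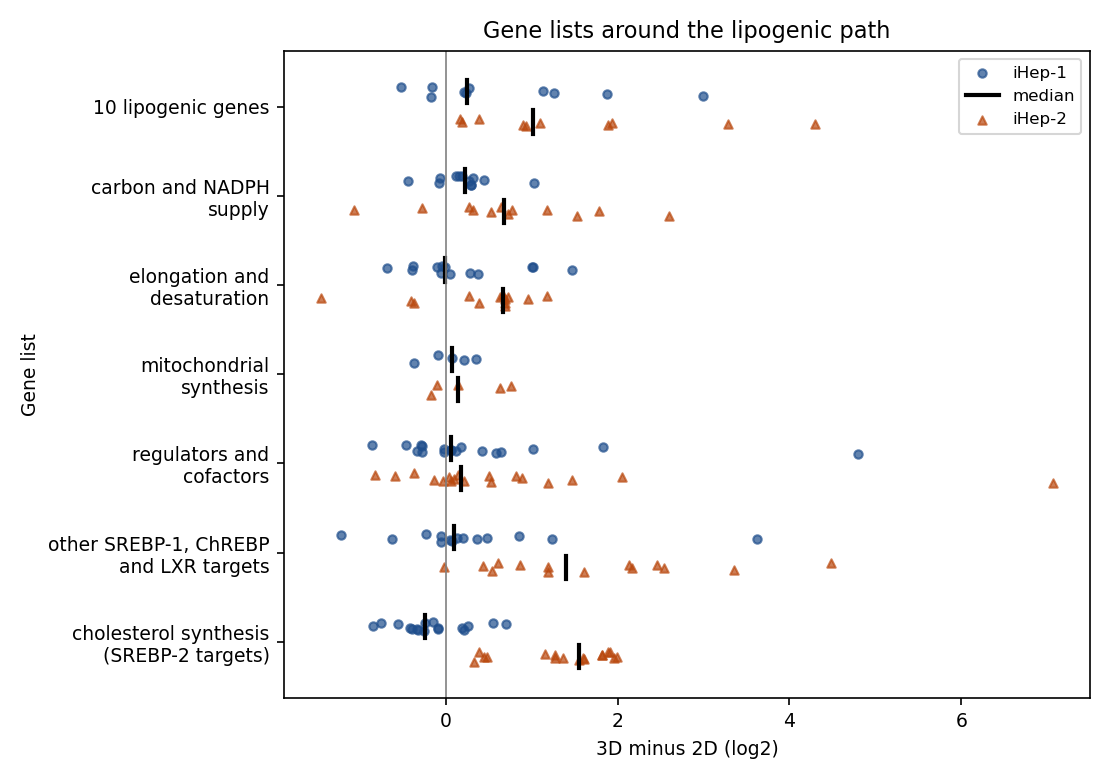
Difference of 3D from 2D (x axis, log2) of each tested gene in the 10 lipogenic genes and 6 lists around them; circles are iHep-1, triangles iHep-2 and black bars the list medians. Medians of iHep-2 lie to the right of those of iHep-1 in each list, by the most for cholesterol synthesis (-0.24 against 1.55), and Thrsp is the far right point of the regulators; with spike-in scaling every iHep-1 median is below 0.

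Markers of the cells moved as follows beside these genes. Hepatocyte markers were present: 11 of the 12 were on the array and tested, and 10 were well above background on all 4 arrays. Alb was at 9.11, 8.94, 8.82 and 9.57. Of the 11, 6 were higher in 3D in both experiments and 0 lower in both, with a median of 0.76 beside the 0.76 of the lipogenic genes, and 0 passed the adjusted p. The apolipoprotein genes Apoa2 and Apoa1 differed by 3.29 and 8.41 and by 0.43 and 1.64, the urea cycle enzyme Cps1 by 2.59 and 2.33, and the tyrosine aminotransferase Tat by 0.51 and 1.02. With spike-in scaling 2 were higher and 2 lower in both, and the median was -0.34 (-1.31 in iHep-1 and 0.49 in iHep-2). The summed signal of the list, in multiples of the 75th percentile, went from 930 in 2D to 967 in 3D in iHep-1 and from 818 to 1751 in iHep-2. Spike-in scaling lowers each 3D sum relative to its 2D sum. Hnf4a, a master regulator of hepatocyte genes, differed by -0.81 and 0.23, and its 3 probes disagreed, with mean differences from -0.29 to 2.15.

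Adipocytes also express the lipogenic genes. Of 9 adipocyte markers, 5 (Adipoq, Lep, Plin1, Cfd and Retn) were not well above background on any array and 2 were higher in both experiments, with Cidec at 4.71 and 1.34. Fabp4 differed by 1.98 and -1.53. The summed adipocyte signal went from 61.7 in 2D to 102.7 in 3D in iHep-1 and from 48.2 to 64.5 in iHep-2. Lpl, at 5.42, 5.51, 5.50 and 5.94, was the brightest of the list on each array. The rise of the sum in iHep-1 was mostly Fabp4, and that in iHep-2 was mostly Lpl. Of 10 fibroblast markers, 4 (Dcn, Lum, Thy1 and Fbn1) were not well above background on any array, and Col1a1 and Col3a1 were so on 1. The fibroblast sum went from 17.3 up to 34.01 in iHep-1 and from 62.9 down to 22.6 in iHep-2. Most of it on each array was Vim, chosen after its values were seen, at 3.61, 4.72, 5.86 and 3.90, so its directions are those of Vim. Of the 4 fibroblast markers tested, 2 were higher in both experiments, 1 was lower in both and Vim had opposite signs. All 7 cycling cell markers were lower in 3D in both experiments, under each scaling too, with a sum that went from 10.1 to 4.67 in iHep-1 and from 20.2 to 3.16 in iHep-2, and Mki67 differed by -2.02 and -5.26. The bile duct sum went from 16.3 up to 25.7 in iHep-1 and from 47.1 down to 30.6 in iHep-2. Spike-in scaling turns the iHep-1 rises of the fibroblast and bile duct sums into falls. Macrophage markers went from 1.56 to 1.24 and from 0.27 to 0.11, and endothelial markers from 0.12 to 0.038 and from 0.093 to 0.061. Ptprc of the macrophage list and Pecam1 and Kdr of the endothelial list were not well above background on any array. Adgre1 and Tek were so on at most 1, and Cdh5 on neither 3D array. The sums include such dim values, so those of the endothelial list cannot be read as a change. What part these shifts have in the values of Scd1, Acacb, Me1 and Srebf1 was not tested. In such bulk samples, fewer cells of a type and less RNA per cell cannot be told apart.

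Likeness of pattern was measured as the Euclidean distance between log2 profiles centred over the 4 arrays, a description from few points that share arrays. Among the 10 genes, Acly and Acaca were each other's nearest (0.34), as were Scd1 and Acacb (1.35), and Srebf1 was nearest to Scd2 (0.65). Over all genes tested, the nonmembers closest to Fasn were Phf23 (0.021), Zfp790 (0.029) and Olfr43 (0.033), and their differences of 0.17 to 0.20 were as small as those of Fasn. Closest to Scd1 were Sdr9c7 (0.21), Bco2 (0.24) and Ihh (0.26). In 2D, Bco2 was never well above background and Sdr9c7 only in iHep-1, whereas Ihh was well above background on all 4 arrays, with differences of 1.68 and 3.04.

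**Figure D5:**
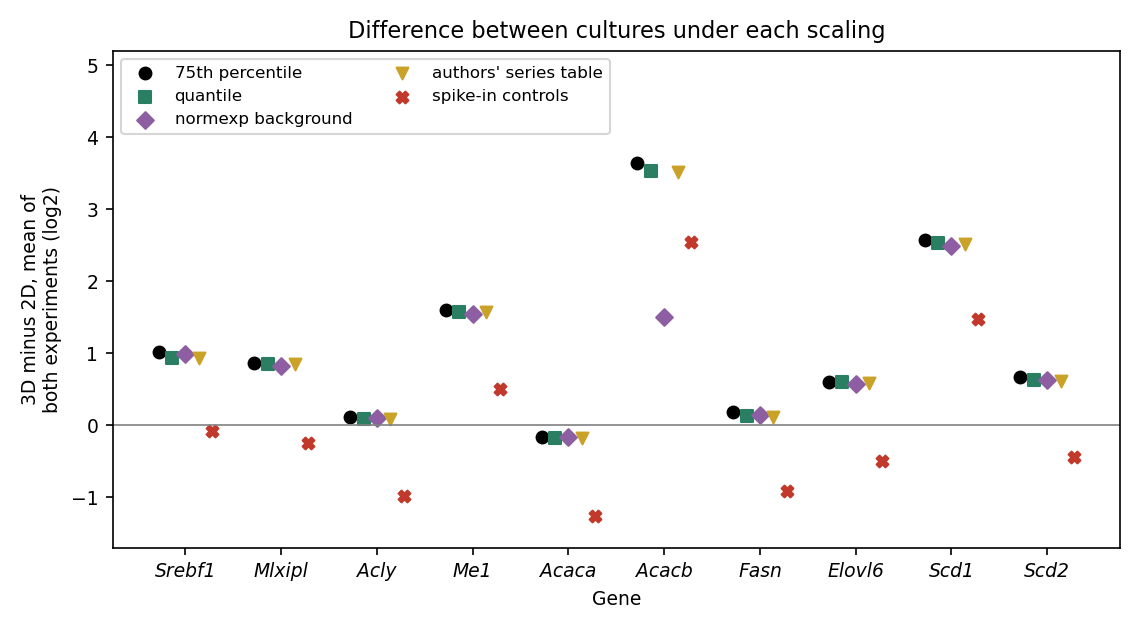
Mean difference of 3D from 2D over both experiments (y axis, log2) for each gene under 5 scalings, one symbol per scaling. The scalings other than the spike-in one lie close together except for Acacb, which is at 1.51 with normexp and 3.65 by the 75th percentile; spike-in scaling lies 1.101 lower for each gene, which leaves Acacb, Scd1 and Me1 above 0 and the other 7 genes below it.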

How the data were processed

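The platform is a 1-colour Agilent mouse array of design 014868 with 1 sample per array, and the 4 arrays share 1 slide and 1 scan per the file headers. The deposited scanner files hold intensity values from Agilent Feature Extraction, for which the submitters' processing notes give version 9.5.1.1 whereas the headers of the files give 10.7.1.1, including a processed signal that is background-subtracted but not normalized between arrays. The authors' deposited series table also holds linear intensity values, with normalization not given in the sources used here; its sorted values were equal between both arrays of an experiment to within 0.000409 log2 units, its direction followed from rank correlations with the processed signal of at least 0.99998 and its linear scale from slopes of 0.988 to 1.0099 of its log2 on the log2 of that signal, and its column medians were 26.3 for iHep-1 and 22.6 for iHep-2. Probe positions are of build mm9.

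From these, the processed signal was put on the log2 scale and the 75th percentile of an array's noncontrol spots subtracted; 72 to 85 spots per array marked as outliers were left out and 0 were saturated. Probes were named by accession (24844), by symbol (7855) or as in the files (8475) through a RefSeq table of GRCm38.p6, whose coordinates were not used for probes. Probes well above background on at least 2 arrays were kept, and a gene was its brightest such probe. limma 3.58.1 in R 4.3.3 (lmFit, eBayes; 2 residual degrees of freedom, with 1.58 prior ones for 3D against 2D) compared 3D with 2D and iHep-2 with iHep-1, two-sided, with Benjamini-Hochberg adjustment over 16450 genes; the step was tested on simulated data. The design text makes the numbers mark a shared experiment, so they pair the arrays, and deviations of same-numbered arrays from group means correlated (r = 0.66). The SEs, intervals and p-values given for 3D against 2D leave this pairing out unless the block is named. Alternatives covered background correction, scaling, filter, probe choice, block, variance prior and each array left out. Named in the text are all 10 members, up to 4 genes per further list with the largest shared difference, set marker genes and the 3 nearest patterns to Fasn and Scd1; others are marked, and 1 gene that the rule names is not reported here. The genes and lists were chosen with earlier results of these data known.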

Additional observations from a re-analysis of the deposited data

Results flagged for a closer look

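In 3 of the 10 genes the experiments moved in opposite directions between 2D and 3D, each on 1 array per culture, and the difference between experiments was not tested. Mlxipl was lower in 3D in iHep-1 (-0.17) and higher in iHep-2 (1.89), with like values from both of its probes. Acaca was at -0.52 in iHep-1 and 0.19 in iHep-2. Acly was at -0.16 and 0.39. Opposite signs were seen in 33.8% of all genes tested.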

How the results depend on the processing

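Of the 3D against 2D differences of the 10 genes, each under up to 14 alternatives, 128 kept their direction and 11 turned. Many of the 128 were fixed in advance. The block and variance prior fits cannot change a difference, and the filter settings gave each member tested the same difference as the main fit. In the alternatives that kept all 4 arrays, 0 of the 10 passed the adjusted threshold. Scd1, Me1 and Acacb kept their direction also where it could turn (ranges 1.48 to 3.05, 0.50 to 2.34 and 1.51 to 4.51). Spike-in scaling gave -0.91 for Fasn, -0.99 for Acly, -0.43 for Scd2, -0.50 for Elovl6, -0.081 for Srebf1, -0.24 for Mlxipl and -0.34 for the median of the 10, left 2 of them higher in both experiments, and called 292 genes for 3D against 2D and 402 for iHep-2 against iHep-1. Acaca was at 0.11 by the mean of its probes, and with 1 array left out it ran from -0.35 to 0.026, above 0 without replicate 1 of 2D (0.026) or of 3D (0.0048). Acly ran from -0.10 to 0.33 and Mlxipl from -0.012 to 1.74, both lowest without 3D replicate 2; Elovl6 ran from 0.076 to 1.12, Scd2 from 0.42 to 0.91 and Me1 from 0.86 to 2.34. The median of the 10 ran from 0.56 to 0.998 with 1 array left out. With the experiment as a replicate block, 0 genes were called for 3D against 2D (smallest adjusted p 0.125), and the block changed no call among the members, where 4 of 10 had an unadjusted p under 0.05 against 13.2% of all genes. When a prior with a trend on intensity was added to the block and fitted robustly, an alternative chosen after seeing the data, 19 genes (0.116%) and no member were called; the members' adjusted p was 0.137 to 0.841 there and 0.137 to 0.998 over all alternatives. For iHep-2 against iHep-1 the calls were 103 with normexp, 126 by quantile normalization, 136 in the authors' series table, 3 over probes above background on all 4 arrays, 303 with culture as a block, 31 with the trend prior, 571 with both, and 0 with any array left out (leave-one-out, from 0 to 0). The causes were not tested. Dim signal limits Acacb and Thrsp in 2D.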
